A study of Mus musculus with 6 samples.

Results

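Melanocytes are steered from outside by 3 receptor systems, and the genes described here are those of the systems themselves: Kit and its ligand gene Kitl, the endothelin receptor genes Ednrb and Ednra with the ligand genes Edn1 and Edn3, and the melanocortin receptor gene Mc1r with Pomc, which encodes the precursor of its ligands. They were taken by gene symbol from probe sets that the platform annotation pairs with exactly 1 gene, using the brightest such probe set of a gene by its mean over the 6 arrays. Of the 8 genes, 7 had such a probe set, each of them 1, among 19938 genes tested in all. Ednra had none under this rule and was not analysed here. The values of 3 arrays from NRG1-treated cells were compared with those of 3 arrays from untreated cells.

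KIT is a receptor tyrosine kinase that binds stem cell factor, the product of Kitl, and melanoblasts need it to survive and to migrate into the skin. EDNRB is a G protein-coupled receptor that answers mainly to endothelin 3 in the embryonic neural crest and to endothelin 1 from keratinocytes in the skin, through Gq, phospholipase C and calcium. MC1R is a Gs-coupled receptor that binds alpha-MSH, a peptide cut from proopiomelanocortin, raises cyclic AMP and shifts pigment from red-yellow pheomelanin to black eumelanin. In skin the ligands come largely from neighbouring cells, and loss of Kit, Kitl, Ednrb or Edn3 leaves white patches in mice.

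Both groups were Melan-Ink4a, one immortal melanocyte line grown from C57BL/6J mouse skin and null for Ink4a-ARF1, the tumour suppressor locus whose loss lets such cells divide indefinitely. The treated group received 10 nM NRG1-b1, a form of neuregulin 1 that signals through ERBB3, for 21 days, and the other group received none. Both grew in RPMI medium with 10% FBS at 10% CO2 that contained cholera toxin (200 pM) and TPA, a phorbol ester (200 nM), and gave RNA at 90% confluence. TPA acts on protein kinase C, which lies downstream of EDNRB, and cholera toxin activates Gs, which lies downstream of MC1R, and both agents were in the medium of the control cells as well. The labels do not tie the 3 arrays of a group to separate cultures, and the p-values therefore measure the spread between these arrays, which may be technical.

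RNA levels came from Affymetrix Mouse Gene 1.0 ST arrays, as the deposited log2 values, on which a step of 1 is a doubling. The arrays resembled each other closely, with median levels of the tested genes between 7.11 and 7.19, correlations across genes of 0.996 to 0.997 within groups and 0.981 to 0.986 between them. All 10 measured markers of melanocytes had mean levels above the median of all genes, and 9 of them fell with NRG1. Of the markers of other cells, 0 of 9 were called for mast cells, which also carry KIT, and 0 of 10 for keratinocytes. The summed signal of the mast cell list lay between 8.54 and 8.61 (log2) with NRG1 and between 8.61 and 8.67 without, and none of its 9 members was above the median of all genes. Of the other lists, 1 of 9 fibroblast, 1 of 7 Schwann cell and 1 of 9 leukocyte markers rose, and 2 of 10 endothelial markers fell. Over all genes 12.3% rose and 8.56% fell. The fibroblast marker that rose was Col1a1, by 0.86. Above the median of all genes were 3 of the 9 fibroblast, 2 of the 7 Schwann cell, 1 of the 9 leukocyte and 2 of the 10 endothelial markers.

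Of the 3 measured receptors 2 fell and 1 rose, whereas none of the 4 measured ligands was called. Kit and Ednrb were lower with NRG1, and Mc1r was higher by a smaller amount (limma, adjusted p under 0.05 over all genes). Over all genes 20.9% were called, 8.56% as falls and 12.3% as rises. With quantile normalization of the same values, rises went from 59% to 48.5% of all calls, and the 3 receptor calls held. In bulk RNA a smaller number of expressing cells and less RNA per cell cannot be told apart.

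**Figure D1:**
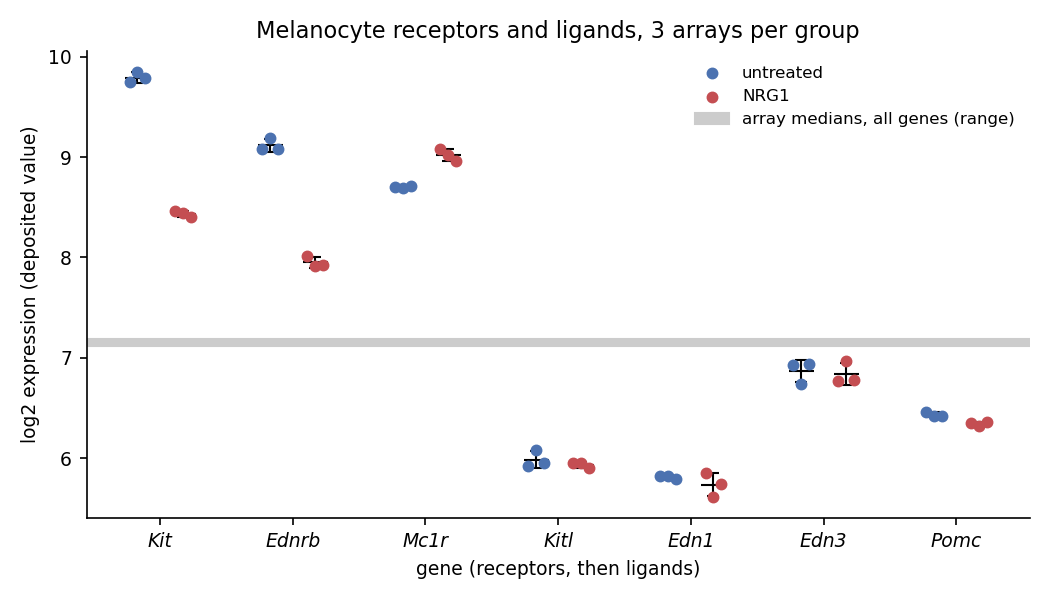
Deposited log2 expression of the 7 measured genes on each array (points), untreated in blue and NRG1 in red, with the group mean and SD (black, n = 3). The Kit and Ednrb points of the NRG1 arrays lie below the untreated points and those of Mc1r above, while the 4 ligand genes lie under the grey band of array medians (7.11 to 7.19); levels of different genes come from different probes and are not comparable in height.

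The promoters of the 3 receptors that changed are shown here because Kit and Ednrb moved together and Mc1r against them. Each sequence is the 250 bases before an annotated start, from RefSeq on build GRCm38.p6, read along the gene's own strand. All 7 measured genes matched a promoter. The windows are chr5:75574737-75574986 on the plus strand for Kit, where a second annotated start lies a few bases downstream, chr14:103843702-103843951 on the minus strand for Ednrb, inside the span RefSeq gives to that gene, and chr8:123406832-123407081 on the plus strand for Mc1r. Capitals mark matches to 7 short motifs searched on both strands.
Kit: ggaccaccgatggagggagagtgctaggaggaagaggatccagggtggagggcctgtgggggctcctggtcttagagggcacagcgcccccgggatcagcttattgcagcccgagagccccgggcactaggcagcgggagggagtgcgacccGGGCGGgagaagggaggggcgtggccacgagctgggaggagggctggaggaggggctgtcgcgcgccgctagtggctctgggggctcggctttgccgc
Ednrb: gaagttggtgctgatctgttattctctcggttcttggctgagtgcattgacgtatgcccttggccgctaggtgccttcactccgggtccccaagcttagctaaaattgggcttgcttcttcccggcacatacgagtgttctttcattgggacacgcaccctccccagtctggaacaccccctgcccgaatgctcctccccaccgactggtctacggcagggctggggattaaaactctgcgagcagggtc
Mc1r: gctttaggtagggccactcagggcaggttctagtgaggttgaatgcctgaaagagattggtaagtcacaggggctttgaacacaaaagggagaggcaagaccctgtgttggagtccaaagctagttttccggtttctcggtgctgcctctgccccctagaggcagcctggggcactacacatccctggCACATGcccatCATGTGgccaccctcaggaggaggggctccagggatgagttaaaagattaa

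The motifs were the E-box CACGTG and the variant CATGTG, both of which MITF can bind, the SOX cores ACAAAG and ACAAT, the AP-1 site TGANTCA, the cyclic AMP response element TGACGTCA and the GC box GGGCGG. No matches in the 3 windows overlapped. The Mc1r window held CATGTG on each strand, from -62 to -57 and from -51 to -46 relative to the start. That motif occurred in 12.3% of 32851 promoter windows of this length and at least 2 times in 1.62%. The Kit window held 1 GC box, from -98 to -93, a motif found in 32.7% of windows. It was rich in G and C at 70.8%, against a median of 52.4% over all windows. The windows of Kitl and Pomc, neither of which was called, also held the GC box, and that of Kitl had 69.2% G and C. The Ednrb window held none of the 7 motifs at 56.8% G and C. The shares of all windows were 6.02% for CACGTG, 16.5% for ACAAAG, 27.7% for ACAAT, 6.75% for TGANTCA and 1.55% for TGACGTCA. A match is a description of the letters and not a binding site.

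Kit, the receptor gene for stem cell factor, read 8.46, 8.44 and 8.40 on the 3 NRG1 arrays and 9.75, 9.85 and 9.79 on the 3 untreated arrays (log2). Every NRG1 array was below every untreated array, and the gap between the groups was many times wider than the spread within either. The means were 8.44 ± 0.030 with NRG1 and 9.79 ± 0.052 without (SD, n = 3). The difference of -1.36 ± 0.059 (SE; 95% interval -1.49 to -1.23; limma, adjusted p = 1.59e-07) meant that the signal fell by 61.0%. Only 42 of the 19938 genes fell further.

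Ednrb, the endothelin receptor gene of the melanocyte lineage, read 8.02, 7.91 and 7.93 with NRG1 and 9.08, 9.20 and 9.09 without. These groups did not overlap either, and their means were 7.95 ± 0.056 and 9.12 ± 0.065 (SD, n = 3). Ednrb signal fell by 55.6%, a difference of -1.17 ± 0.063 (SE; 95% interval -1.31 to -1.03; limma, adjusted p = 6.72e-07). It was exceeded by 61 genes with larger falls.

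Mc1r, the melanocortin receptor gene, read 9.08, 9.03 and 8.97 with NRG1 and 8.70, 8.69 and 8.72 without, so that its 3 treated arrays all lay above its 3 untreated ones. The rise was 0.32 ± 0.059 (SE; 95% interval 0.19 to 0.45; limma, adjusted p = 0.0030), or 1.25-fold. Rises larger than this were measured for 1677 genes. The treated arrays spread more widely for Mc1r (SD 0.057) than the untreated ones (SD 0.015).

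**Figure D2:**
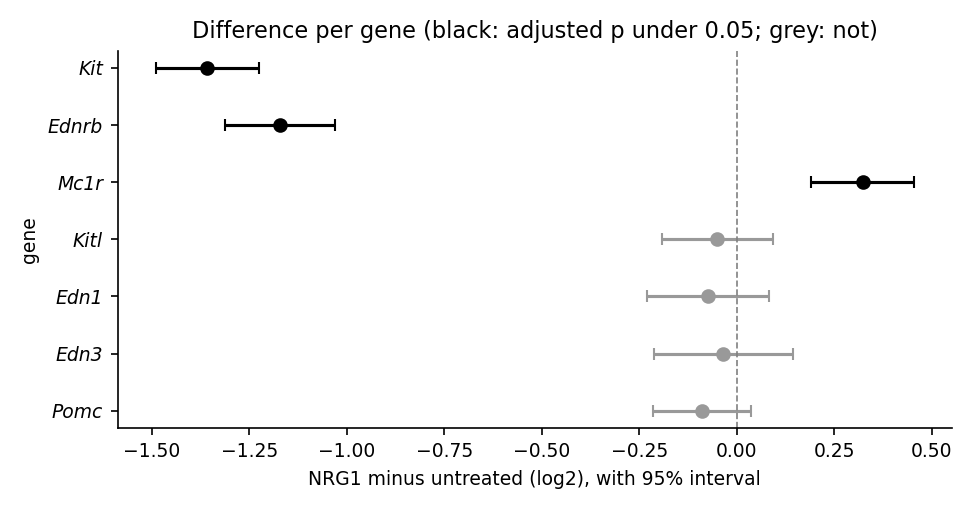
NRG1 minus untreated difference (log2) of each of the 7 genes with its 95% interval from limma, black for the 3 called genes and grey for the others. The intervals of Kit (-1.49 to -1.23) and Ednrb (-1.31 to -1.03) lie far below 0, that of Mc1r (0.19 to 0.45) above 0, and those of the 4 ligands cross 0.

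Next to Mc1r on chromosome 8, the following protein-coding gene in RefSeq order is Tubb3, which encodes a neuronal beta-tubulin. Tubb3 rose by 1.20 ± 0.103 (SE; limma, adjusted p = 1.66e-05), from 7.86 to 9.06. The gene before Mc1r, Tcf25, differed by 0.12 (adjusted p = 0.167). No map of the Mc1r probes to exons was used here, and the part of Tubb3 in the Mc1r value was not tested. Neighbours of the other receptors did not pass the test: Pdgfra and Kdr beside Kit differed by -0.028 and -0.21, and Slain1 and Pou4f1 beside Ednrb by -0.0047 and 0.015.

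Differences taken within each array are unchanged when all log2 values of that array are shifted by the same amount. They were not recomputed under quantile normalization. Kit minus Ednrb was 0.45, 0.53 and 0.48 on the NRG1 arrays and 0.66, 0.65 and 0.70 on the untreated arrays. The 2 groups did not overlap, and on the array scale Kit went down by 0.19 more than Ednrb (log2). Kit minus Mc1r went from 1.09 ± 0.062 untreated to -0.59 ± 0.029 with NRG1 (SD, n = 3 each), and Ednrb minus Mc1r from 0.42 ± 0.077 to -1.07 ± 0.038. The height of these differences cannot be read, since the genes have different probes. Their change applies to the array scale alone, and unequal compression between the probe sets was not tested. Each of the 3 comparisons gave p = 0.1 in a 2-sided exact permutation test, also after adjustment over the 3, which is the smallest value that 3 arrays against 3 can give.

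**Figure D3:**
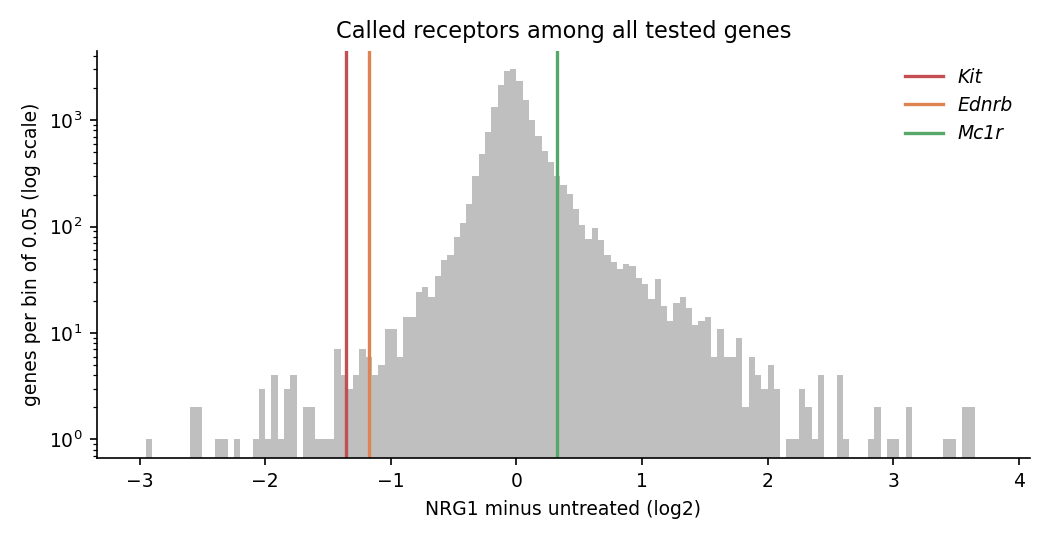
Histogram of NRG1 minus untreated differences (log2, bins of 0.05, counts on a log scale) over all 19938 genes, with vertical lines at Kit (-1.36), Ednrb (-1.17) and Mc1r (0.32). Kit and Ednrb stand in the thin lower tail, with 42 and 61 genes beyond them, and Mc1r in the upper shoulder.

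None of the 4 ligand genes was called by limma, and at an unadjusted p under 0.05 the count was also 0. Kitl, the gene of stem cell factor, read 5.95, 5.95 and 5.90 with NRG1 and 5.92, 6.08 and 5.96 without, and the groups overlapped. Its difference was -0.051 (95% interval -0.19 to 0.092; limma, adjusted p = 0.647). Edn1, the endothelin 1 gene, read 5.85, 5.62 and 5.75 against 5.82, 5.82 and 5.79, with overlapping groups and more spread among the treated arrays (SD 0.116 against 0.018).

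The Edn1 difference was -0.074 (95% interval -0.23 to 0.082; adjusted p = 0.527 from limma). Edn3, the endothelin 3 gene, read 6.76, 6.97 and 6.78 with NRG1 and 6.93, 6.74 and 6.94 without, a difference of -0.035 (95% interval -0.21 to 0.14; limma, adjusted p = 0.818). Its groups overlapped fully, and 1 array in each stood apart from the rest. The sign of this small difference turned to 0.0018 without NRG1 replicate 1.

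Pomc, the gene of the melanocortin precursor, read 6.35, 6.32 and 6.36 with NRG1 and 6.46, 6.42 and 6.42 without. The 3 treated values all lay under the 3 untreated ones, as for Kit and Ednrb, but the difference was only -0.089 (95% interval -0.21 to 0.036; limma, adjusted p = 0.317). Groups without overlap were found for 4 of the 7 genes, and for 36.7% of all genes tested. All 4 ligand genes were under the array median on each of the 6 arrays. Array signals are compressed near background, so a difference in these genes can be understated, and the intervals apply to the array scale alone.

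Genes that act with the receptors were taken from 4 lists, none of which holds the 7 receptor and ligand genes described above. Over all genes 12.3% rose and 8.56% fell, 20.9% together. Of 40 measured genes of KIT signalling, 10 rose, 5 fell and 25 were not called, so that 37.5% were called, with a median difference of 0.049, against -0.029 over all genes. Of 32 genes of endothelin processing and signalling, 13 rose and 2 fell, or 46.9% called (median 0.10). Among 30 melanocortin genes 7 rose and 2 fell, or 30.0% called (median 0.045). The class III receptor tyrosine kinases are the family of KIT, and of 11 genes for its other members and their ligands, with Kit and Kitl left out, 2 rose and 0 fell (median 0.083), a share of 18.2% that is near that over all genes. With quantile normalization the KIT list had 10 rises and 8 falls. The KIT list was bright: its median level was 9.21 against 7.17 over all genes, with 36 of its 40 genes above that median. Median levels were 7.44, 7.8 and 6.58 for the endothelin, melanocortin and class III lists. In the alternative fit of only the 9969 brighter genes, 2596 rose and 1776 fell. That fit called 19 of its 36 KIT, 12 of its 17 endothelin, 9 of its 17 melanocortin and 3 of its 4 class III list genes. These counts compare with the all-gene counts of that fit and not with the 20.9% of the main fit. A comparison of the list shares at matched level was not tested.

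In the KIT list the largest rises were those of Fyn, a SRC family kinase (0.72 ± 0.065, SE), of Ptpn6, the SHP-1 phosphatase that restrains KIT (0.63), of Stat3 (0.55) and of Gab1, a docking protein for PI3K (0.51). Fyn read 9.74, 9.78 and 9.69 with NRG1 and 9.06, 9.08 and 8.93 without (limma, adjusted p = 2.54e-05). Sos1, the exchange factor that loads RAS with GTP, fell by 0.60, from 9.42 ± 0.034 to 8.81 ± 0.069 (SD, n = 3 each). The PI3K catalytic subunit gene Pik3cb fell by 0.35, and Stat5b and the PI3K regulatory subunit gene Pik3r3 fell by 0.30 each. The adaptor gene Grb2 (0.042) and the phosphatase gene Ptpn11 (0.15) were not called, although Ptpn11 passed under 3 of 15 alternatives (limma, adjusted p from 0.0179 to 0.43 over the 15).

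Among endothelin genes the largest rise was that of Rgs2, an inhibitor of Gq. It read 6.95, 7.10 and 6.95 with NRG1 and 5.57, 4.95 and 5.31 without, a rise of 1.72 ± 0.131 (SE; limma, adjusted p = 7.66e-06). The untreated values were the more scattered and lay well under the array median. The NRG1 values of Rgs2 were also under the lowest array median (7.113). Rgs3, another such regulator, rose by 0.83 on its brighter probe set and by 0.45 on the mean of its probe sets. Rises were also measured for the phospholipase C gene Plcb1 (0.73) and for the calcium channel gene Itpr3, whose product answers to inositol trisphosphate (0.50). Plcb1 read under the lowest array median on every array as well.

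Beside Ednrb, which the list leaves out, the 2 genes of this list that fell were Mme and Rasgrp3. Mme, which encodes neprilysin, a membrane protease that degrades endothelins and other peptides, read 11.25, 11.28 and 11.33 with NRG1 and 12.63, 12.58 and 12.58 without, a difference of -1.31 ± 0.058 (SE; limma, adjusted p = 1.71e-07). Rasgrp3, which couples diacylglycerol to RAS, fell by 1.23. Gnaq, the Gq subunit gene, was not called at 0.027, and neither was the ligand gene Edn2 at -0.0067. Other G protein subunit genes of the list rose: Gna11 (0.26), Gna12 (0.37), Gnai2 (0.27) and Gnai3 (0.30). Gna13, Gna14 and Gnai1 were not called. Without NRG1 replicate 1 both Gna11 and Gnai2 missed the threshold, and Gna11 also did so without untreated replicate 1 (limma, adjusted p up to 0.0624).

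Among melanocortin genes, the 3 orphan nuclear receptor genes of the NR4A family rose: Nr4a1 by 0.83 ± 0.069 (SE; limma, adjusted p = 1.36e-05), Nr4a2 by 0.45 and Nr4a3 by 0.31. Cyclic AMP can induce these genes, and also Crem, Sik1 and Ppargc1a of the same list. Those differed by 0.027, 0.048 and -0.046 and were not called. Crem and Ppargc1a, but not Sik1, read under the lowest array median (7.11) on every array, where a difference can be understated. A part of cyclic AMP in these values was not tested, and cholera toxin was in the medium of both groups. Pam, which amidates the end of peptides such as alpha-MSH, rose by 0.53, and Atrnl1, the attractin-like gene, by 0.42. Ppargc1b, a coactivator gene, fell by 0.30, but it missed the threshold when NRG1 replicate 1 or untreated replicate 1 was left out (limma, adjusted p up to 0.0663). Sik2, a kinase gene that holds back CREB coactivators, fell by 0.24, but it missed the threshold when NRG1 replicate 3 was left out (limma, adjusted p = 0.0587). Atrn (0.10) and Mgrn1 (0.11), which act on MC1R with agouti, and the other melanocortin receptor genes Mc2r to Mc5r, were not called. Mc2r to Mc5r also read under the lowest array median on every array.

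The receptors related to KIT were not called: Pdgfra differed by -0.028, Pdgfrb by 0.19, Csf1r by 0.047 and Flt3 by -0.20 (limma, adjusted p from 0.0556 to 0.882). These receptor genes read under the lowest array median (7.11) on every array, where a difference can be understated. Flt3, the nearest to the threshold, passed under 2 of 14 alternatives (limma, adjusted p from 0.0329 to 0.18 over the 14). In that list the 2 rises were those of ligand genes, Pdgfb by 0.84 and Pdgfa by 0.69.

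**Figure D4:**
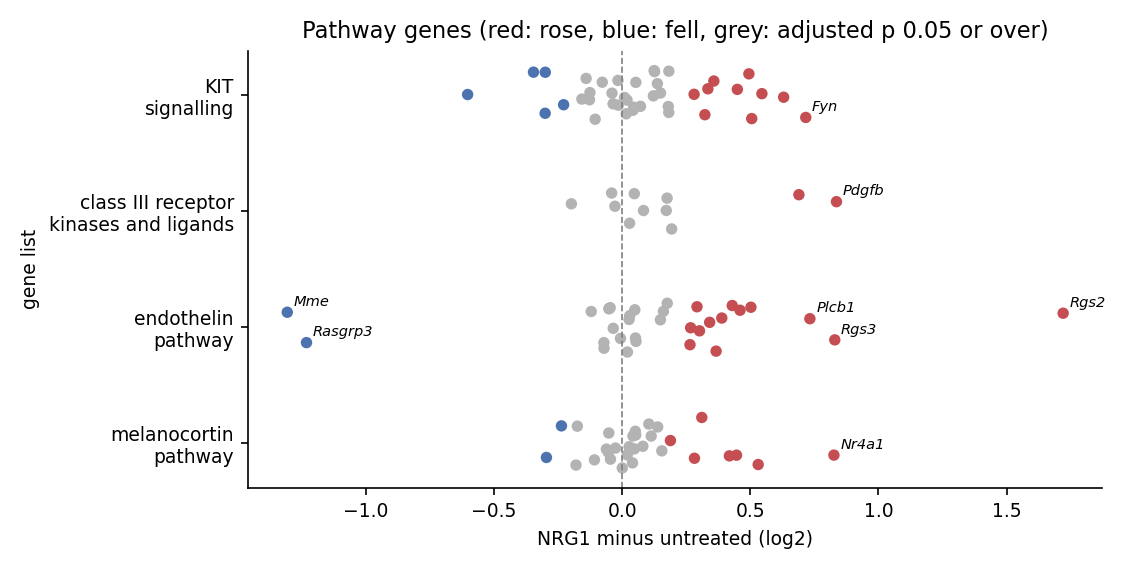
NRG1 minus untreated difference (log2) of each measured gene in the 4 pathway lists (points, spread vertically for legibility), red for called rises, blue for called falls and grey for genes not called; genes beyond 0.7 in size are named. The endothelin list spans from -1.31 (Mme) to 1.72 (Rgs2).

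Genes with the most similar pattern over the 6 arrays were ranked by the Euclidean distance between values after each gene's mean was subtracted. Gene models with Gm or Rik symbols were left out of this ranking and of the count of correlated genes below. Kit lay nearest to AA388235 (distance 0.10), Ndrg1 (0.11), Unc5c (0.11), Dpy19l1 (0.13) and Id2 (0.13), whose differences ran from -1.40 to -1.26. Ndrg1 is a stress-responsive gene, Unc5c encodes a netrin receptor and Id2 an inhibitor of helix-loop-helix factors. Nearest to Ednrb was Sfrp1, a secreted Wnt antagonist gene, at a distance of 0.032 and a difference of -1.19, followed by Nrbp2 (0.081), Slc26a7 (0.093), Elovl7 (0.095) and the monoamine oxidase gene Maoa (0.11). For Mc1r these were Polr1e (0.055), Sh3bp4 (0.056), Lrp12 (0.057), Mras (0.062) and Tmem39a (0.063). With 2 groups of arrays such likeness mostly reflects a difference of similar size, and 216 genes correlated above 0.99 with Kit.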

How the data were processed

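RNA of 3 NRG1-treated and 3 untreated samples of Melan-Ink4a cells was measured, 200 ng each. The deposited values are log2 levels per probe set, made with GCOS and RMA per the submitters' processing notes; their settings and versions, and the build, are not given in the sources used. The values ran from 2.34 to 14.59, as on a log2 scale. RMA summarises probes after background correction and normalization, which compresses weak signals. Groups came from the sample titles. Of 35557 probe sets, 21789 had 1 gene, with symbols updated by Entrez number to RefSeq (GRCm38.p6), and the brightest per gene was kept without a filter on level. The 19938 genes were tested with limma 3.58.1 in R 4.3.3 (2-sided, Benjamini-Hochberg over all genes, threshold 0.05); called means under it. SEs and intervals come from that fit. The number of arrays limits precision (median SE 0.071). The members and gene lists were chosen with earlier results of these data known. The 15 alternatives covered normalization, centring, dim genes, probe set choice, variance model, array weights, a replicate block and each array left out. Named list genes are the 4 largest called rises and falls of each list, and some others are named after their values were seen; the nearest 5 genes are given per called receptor. List genes with no single-gene probe set, such as Asip and Gnas, were not analysed here. The fit was tested on simulated data.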

Additional observations from a re-analysis of the deposited data

How the results depend on the processing

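The calls of Kit, Ednrb and Mc1r held under all 15 alternatives, with differences from -1.42 to -1.33, from -1.23 to -1.13 and from 0.26 to 0.35, and the largest adjusted p was 0.0165, for Mc1r. None of the 4 ligands was called under any alternative that kept it; a filter on dim genes dropped the ligands in 1 or 2 of the 15 fits. Only Edn3 changed sign, with a difference between -0.099 and 0.0018 over the fits that leave out 1 array. The counts of called genes ran from 14 to 20 for the KIT list, 12 to 16 for the endothelin list, 6 to 10 for the melanocortin list and 2 to 3 for the class III list. Fits without dim genes held fewer genes of these lists. The sample titles do not say that replicate numbers pair the samples. Deviations from the group means correlated at -0.095, -0.16 and 0.074 for the same number, and from -0.196 to 0.247 for different numbers. With 3 arrays per group these values cannot tell paired from unpaired samples. With the replicate block the differences were unchanged, 3 members were called, and Mc1r had adjusted p = 0.0124. An alternative background correction needs probe signals and was not run.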
